A study of Mus musculus with 4 samples.

Results

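The genes described here are the nuclear genes for subunits of oxidative phosphorylation complexes I, III, IV and V. They were chosen by name: symbols that start with Ndufa, Ndufb, Ndufc, Ndufs, Ndufv, Uqcr, Cox4, Cox5, Cox6, Cox7, Cox8 or Atp5, without assembly factors named Ndufaf and without names that hold ps or Gm. The rule found 82 of the 31253 genes in the matrix, of 81 symbols, because Atp5o has 2 gene identifiers. By complex there were 38 members of complex I, 8 of complex III, 18 of complex IV and 18 of complex V. The rule left out 8 Ndufaf genes, Cox5b-ps and Ndufb1-ps. Ndufb1-ps was nonetheless at 203, 271, 250 and 212 UMIs per 1000000 (CPM) in macrophages of barcode suffixes 1 to 4.

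The study sorted viable F4/80+ cells from the mouse peritoneal cavity and made 3' single-cell RNA libraries with unique molecular identifiers (UMIs), which count transcripts. Labels give 4 groups of 1 sample each, all 24 weeks old: C57BL/6 wild-type mice on a normal diet, Apoe-/- mice on a normal diet, Apoe-/- mice fed a high-fat diet (HFD), and Apoe-/- mice fed the HFD and given anti-CVI-mAb, an antibody to collagen VI by the series title. Apoe-/- means loss of apolipoprotein E in the whole animal, on a C57BL/6 background. The HFD mice, stated to be male, ate 21% fat with 0.15% cholesterol from 4 weeks of age, over 20 weeks, and then returned to normal diet. At week 21 they received 3 mg of antibody in 200 µL, or saline (PBS) alone, into the peritoneum, and normal-diet mice received PBS too. How many mice gave each sample is not stated. The deposited matrix joins 4 barcode suffixes, taken here as 4 libraries, and which suffix belongs to which sample is stated nowhere in the labels or headers. No difference between genotypes, diets or antibody was therefore computed, and with 1 library per group there is no replicate and no test. Every interval below is an exact 95% interval (Poisson for levels, Clopper-Pearson for shares and ratios) that covers counting error only.

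Oxidative phosphorylation is the chain by which mitochondria turn the oxidation of fuels into ATP. Complex I takes electrons from NADH and complex II from succinate, complex III passes them from ubiquinol to cytochrome c, complex IV gives them to oxygen, and complex V, the ATP synthase, uses the proton gradient built on the way. Mitochondrial DNA (mtDNA) encodes a few core subunits of complexes I, III, IV and V, while the nucleus encodes all others, so each complex is built from both genomes. Resident tissue macrophages and alternatively activated macrophages are known for reliance on oxidative metabolism, and inflammatory activation is known for a shift towards glycolysis.

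Barcodes were kept from 500 detected genes upwards, provided mitochondrial UMIs did not exceed 10%. Suffix 1 stood apart from the others: it lost 42.3% of its barcodes to these filters, against 11.0 to 19.3% in suffixes 2 to 4, and 1936 of its barcodes exceeded the mitochondrial limit. Of 26811 barcodes, 104 had a sequence present in 2 suffixes, so few cells were shared in name. Macrophages (Adgre1 of at least 2 UMIs, no Cd79a, no Cd3e) numbered 1538, 4218, 4334 and 5017 in suffixes 1 to 4, with median depths of 8219, 12507, 13951 and 12903 UMIs. B cells (Cd79a of at least 3 UMIs, no Adgre1) numbered 586, 576, 311 and 281, and T cells (Cd3e of at least 2 UMIs, no Adgre1, no Cd79a) 61, 52, 79 and 74. Apoe, deleted in 3 of the 4 groups, was at 30.1, 863, 738 and 29778 CPM in macrophages, which checks no label because no suffix has a group. The 10 macrophage markers all had UMIs in macrophages and summed to 45119, 54304, 62836 and 71616 CPM there, against 1143 to 1834 CPM in B cells and 1662 to 4104 CPM in T cells. The 8 B cell markers summed to 241 CPM in macrophages of suffix 1 and 12.1 to 31.5 CPM in the others, and 5 erythroid markers summed to 1228 CPM in B cells of suffix 1 and at most 1.86 CPM in the others. The sort selected a macrophage surface protein, so lymphocytes here are those that passed it. The part of free RNA in the lymphocyte values was not tested.

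Members together made up 13106 CPM in macrophages of suffix 1 (13044 to 13168), 19005 in suffix 2 (18969 to 19041), 18241 in suffix 3 (18207 to 18274) and 16788 in suffix 4 (16757 to 16819). In B cells the sums were 13316, 14685, 14494 and 14719 CPM, and in T cells 17532, 19294, 17872 and 18961 CPM. Macrophages of suffix 1 were the lowest of the 4 by far, while B and T cells varied much less between suffixes. In every suffix the B cell sum was below the T cell sum. A CPM value cannot tell fewer transcripts per cell from more of other transcripts, because total RNA differs between these cells.

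**Figure D1:**
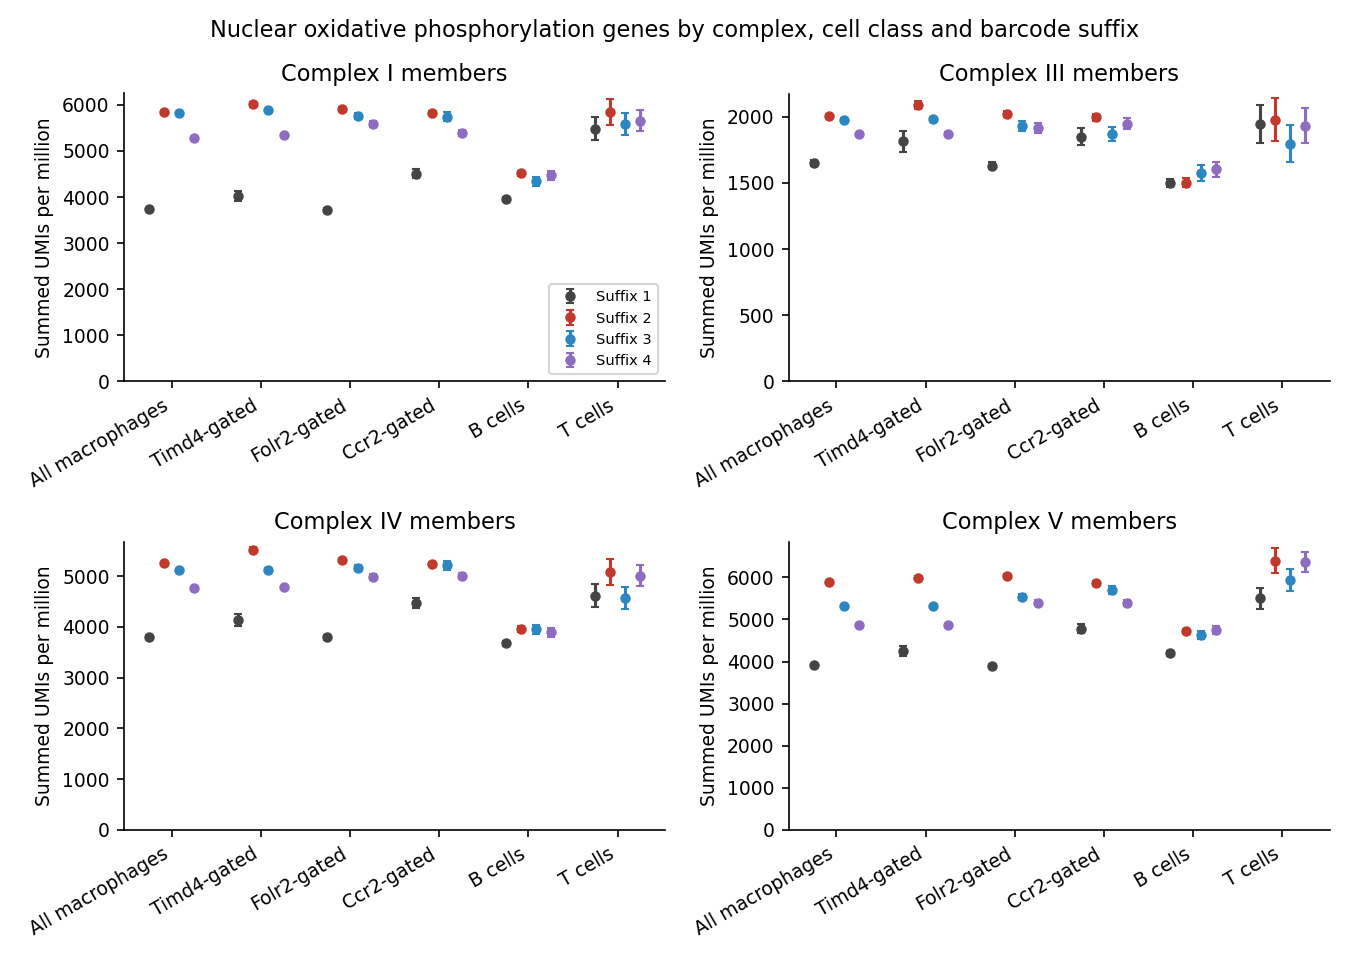
Summed CPM of the members of complexes I, III, IV and V (vertical axes, from 0) in all macrophages, in Timd4-, Folr2- and Ccr2-gated macrophages, B cells and T cells, 1 point per barcode suffix with its exact 95% Poisson interval. Suffix 1 is the lowest macrophage point in each panel, and B cells lie below T cells.

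The complexes kept nearly constant shares of the member UMIs. In macrophages complex I held 28.5, 30.7, 31.9 and 31.4% in suffixes 1 to 4, complex III 12.6, 10.6, 10.8 and 11.1%, complex IV 29.0, 27.7, 28.1 and 28.4%, and complex V 29.9, 31.0, 29.1 and 29.0%. In B cells complex V held 31.5 to 32.3% and complex IV 26.4 to 27.6%, and in T cells 31.4 to 33.6% and 25.5 to 26.4%. The low total of suffix 1 was thus found in each complex: complex I stood at 3738 CPM there against 5272 to 5843 CPM in the other suffixes, complex III at 1649 against 1871 to 2008 CPM, complex IV at 3805 against 4773 to 5266 CPM, and complex V at 3914 against 4872 to 5888 CPM. Complex III had the narrowest gap.

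The members with most UMIs in macrophages were, per complex, Ndufa4 and Ndufa13, Uqcrh and Uqcrb, Cox4i1 and Cox8a, and Atp5h and Atp5e. The 3' kit tags a transcript near its end, so no correction for length was made, and levels of different genes are not ranked further. Cox4i1, the ubiquitous form of complex IV subunit 4, had 779, 1028, 1005 and 1012 CPM, and Cox8a, a small subunit of the same complex, 388, 616, 639 and 599 CPM. Uqcrh, the hinge protein of complex III that contacts cytochrome c1, had 705, 592, 624 and 664 CPM, and was highest in suffix 1. Ndufa4, named for complex I but since assigned to complex IV, had 268, 456, 515 and 421 CPM, and Ndufa13, an accessory subunit of complex I also called GRIM-19, had 144, 286, 305 and 283 CPM. Atp5h, subunit d of the ATP synthase stalk, had 340, 570, 528 and 511 CPM, and Atp5e, the epsilon subunit of its catalytic head, 387, 605, 545 and 480 CPM.

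Tissue-restricted isoforms were near the detection limit. Cox7b2, Cox8b, Cox8c and Ndufa4l2 had no UMI in macrophages, B cells or T cells, and neither had the second identifier of Atp5o. A count of 0 allows up to 3 counts, which is 0.226, 0.0542, 0.0477 and 0.0445 CPM in macrophages of suffixes 1 to 4, but 6.82 to 10.4 CPM in the few T cells. Cox4i2, the lung isoform of subunit 4, had 0, 2, 3 and 2 UMIs in macrophages and 0 in lymphocytes. Cox7a1, the heart and muscle isoform, was at 1.81, 2.67, 2.06 and 1.44 CPM in macrophages, from 24, 148, 130 and 97 UMIs. Cox6b2, the testis isoform, was at 1.73, 0.939, 0.937 and 0.949 CPM, and Cox6a2, the heart and muscle isoform, at 0.829, 0.181, 0.159 and 0.163 CPM from 10 or 11 UMIs per suffix. These 9 genes were under the mean of 20 CPM asked for in the comparisons that follow, which therefore cover 73 members: 37, 8, 11 and 17 of complexes I, III, IV and V. That filter used the mean of all suffixes or classes compared, and the 73 are not all members.

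Most members were lowest in macrophages of suffix 1. Of 73 members, 62 had their lowest level there, against 23.8% of 5391 genes tested, and 52 had their highest in suffix 2, against 20.1%. By complex, the lowest level was in suffix 1 for 32 of 37, 7 of 8, 9 of 11 and 14 of 17 members of complexes I, III, IV and V. Levels spanned at least 2-fold, highest over lowest, in 14 members, against 27.6% of genes, while the direction of the range was one-sided. With levels centred on the median of all genes tested, 40 members spanned 2-fold, against 20.0% of genes. The size of the range against the background thus depended on the scaling. The median log2 ratio of suffix 1 to the median of the others was -0.63 for members and 0.42 for all genes tested. Relative to the UMIs other than mitochondrial and ribosomal protein UMIs it was -0.73 for members and 0.33 for all genes.

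**Figure D2:**
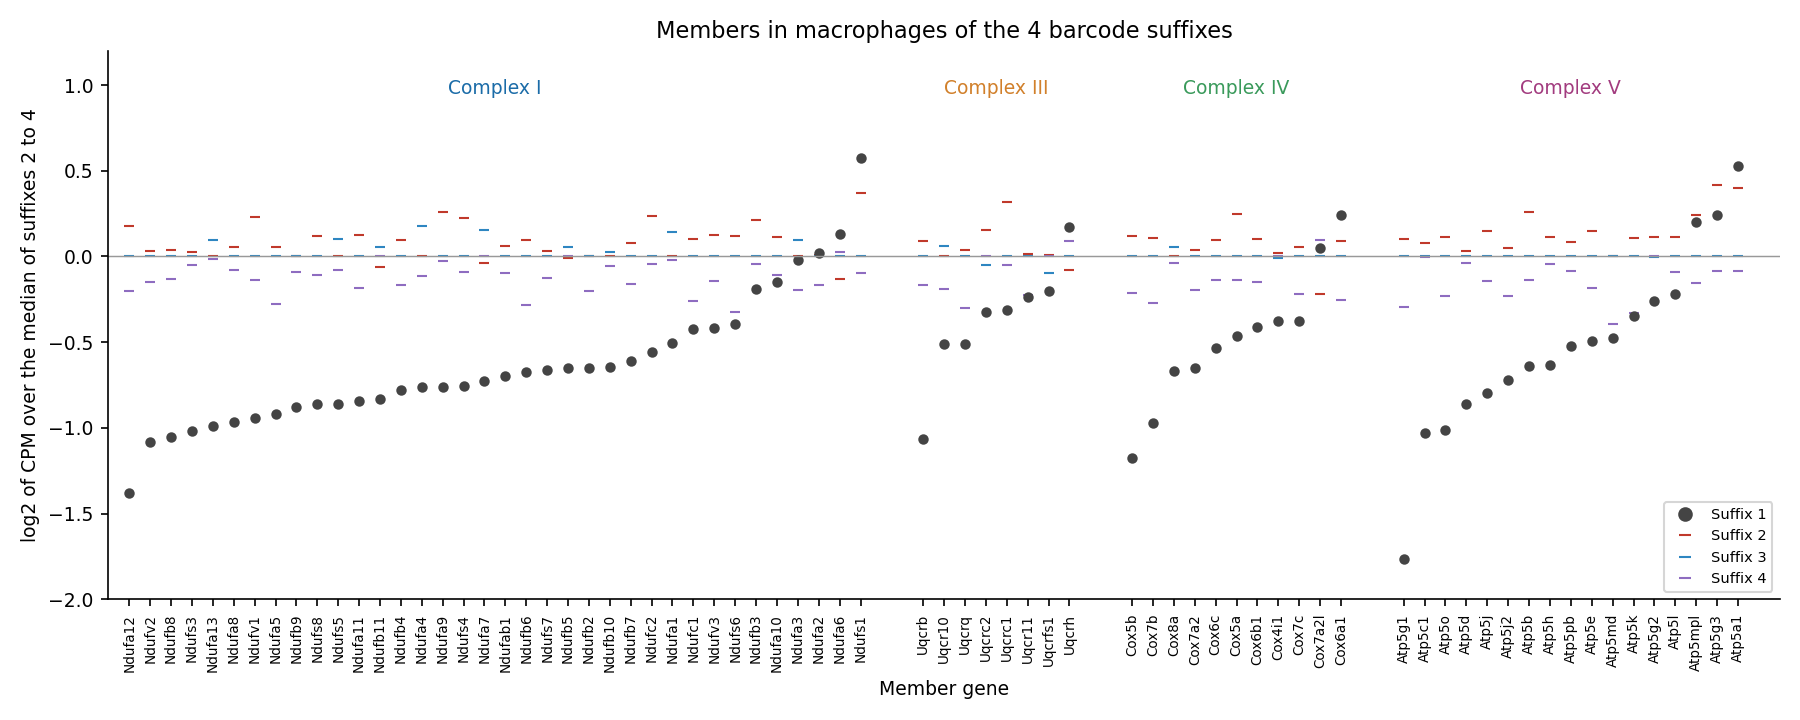
The members at 20 CPM except 1 that is not drawn, by complex, each with its level in macrophages of suffix 1 (dots) and of suffixes 2 to 4 (dashes) as log2 of CPM over the median of suffixes 2 to 4. The dots spread from Atp5g1, the lowest, to Ndufs1, the highest, while the dashes stay close to 0.

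The widest range was that of Atp5g1, a gene for subunit c of the ATP synthase rotor, with 71.9, 263, 244 and 199 CPM in suffixes 1 to 4, a 3.66-fold span. Ndufa12, an accessory subunit of complex I, had 42.5, 125, 111 and 96.0 CPM. Cox5b, which carries the zinc site of complex IV, had 148, 363, 335 and 289 CPM. In all 3 genes suffix 1 lay far below suffixes 2, 3 and 4, which ran in the same order, 2 above 3 above 4. The same order held for Ndufv1, the subunit of complex I that binds NADH (23.8, 53.7, 45.8 and 41.7 CPM), for Uqcrb, the ubiquinone-binding protein of complex III (180, 401, 377 and 335 CPM), and for Atp5o, the stalk subunit OSCP (109, 240, 221 and 188 CPM).

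Narrow ranges were those of Ndufa2, Uqcrfs1 and Uqcr11. Ndufa2, an accessory subunit of complex I, had 255, 253, 252 and 224 CPM. Uqcrfs1, the Rieske iron-sulphur protein of complex III, had 101, 117, 109 and 117 CPM, and Uqcr11, a small subunit of that complex, 236, 280, 278 and 238 CPM. Members highest in suffix 1 numbered 6, against 62.8% of genes tested: Ndufs1, Ndufa2, Ndufa6, Uqcrh, Cox6a1 and Atp5a1, named after their values were seen. Ndufs1, the large iron-sulphur subunit of complex I, had 44.4, 38.6, 29.9 and 27.9 CPM, and Atp5a1, the alpha subunit of the catalytic head, 443, 406, 307 and 289 CPM. Suffix 1 was thus not low for every member, even within the catalytic head: Atp5b, the beta subunit, had 196, 365, 305 and 277 CPM.

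Without suffix 1 the ranges were small. No member spanned 2-fold between suffixes 2, 3 and 4, against 3.34% of genes, and 63 of 73 were lowest in suffix 4, against 57.9%, with 56 highest in suffix 2, against 68.6%. The wide ranges among members therefore all rested on suffix 1. Its low level was found again inside each part of the macrophages. Suffix 1 was lowest for 56 of 73 members in Timd4-gated macrophages (23.9% of genes) and for 63 in Folr2-gated ones (26.7%). It was lowest for 52 in Ccr2-gated macrophages (27.3%) and for 63 in macrophages of no gate (23.8%). In B cells it was lowest for 49 members (22.0% of genes) and in T cells for 35 (16.8%). The T cell sums of suffixes 1 and 3 had overlapping intervals, 17101 to 17970 and 17439 to 18312 CPM. None of the members spanned 2-fold in B cells, against 13.6% of genes, and 5 did in T cells, against 44.8%, where counts are low.

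Other features of suffix 1 macrophages moved with this. Their median mitochondrial share was 5.16%, against 3.63 to 4.24% in the others, their median depth was the lowest, and the 89 ribosomal protein genes tested had a median log2 ratio of -0.53. The 8 proliferation markers summed to 31.7 CPM in suffix 1 and 297, 227 and 170 CPM in the others, and the 6 mast cell markers to 63.3 CPM against 2.49 to 5.99 CPM. Members and ribosomal protein genes have short transcripts: the longest coding transcript had a median of 865 nt for members and 3088 nt for all genes tested. A split by that length, made after the values were seen, gave medians for other genes of -0.54 under 750 nt, -0.35 from 750 to under 1500 nt, 0.24 from 1500 to under 3000 nt and 0.69 at 3000 nt or more. Members had -0.51, -0.80, -0.49 and -0.70 in the same classes, the last from 3 genes, one of them Atp5g1 with 4715 nt. Under 750 nt members did not lie below other genes of that length, while from 750 nt upwards their medians lay below those of other genes. Classed by the median length of a gene's coding transcripts, members under 750 nt lay below others, at -0.51 (45 genes) against -0.09 (544 genes). Whether length, the loss of cells or the group sets the low level was not tested.

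**Figure D3:**
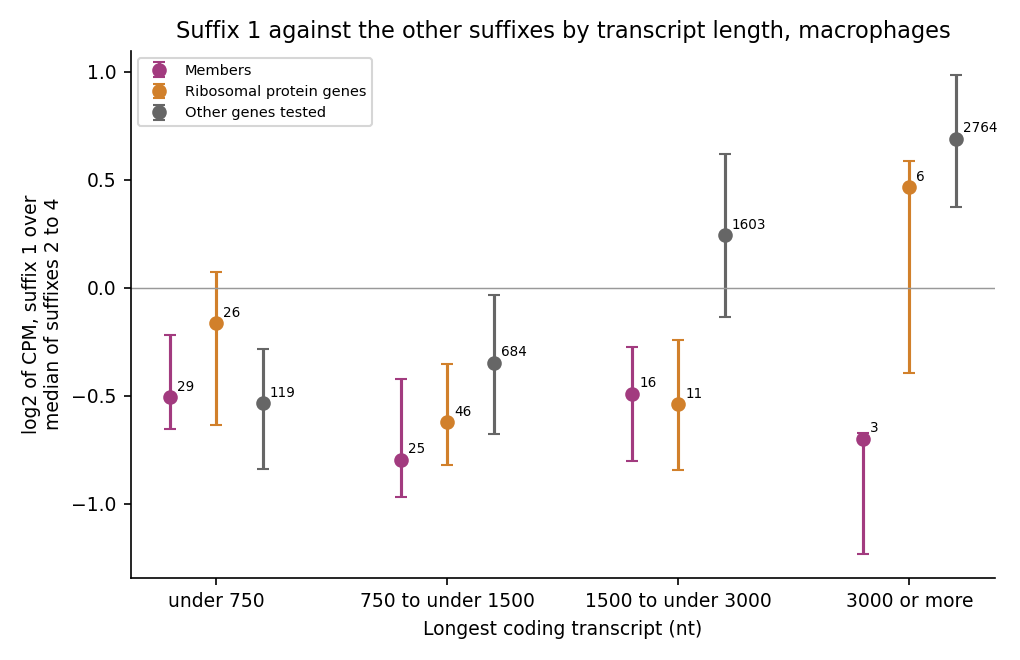
log2 of CPM in macrophages of suffix 1 over the median of suffixes 2 to 4 (vertical axis) by longest coding transcript (horizontal axis), as medians with lower and upper quartiles and the number of genes beside each point. Other genes run from -0.54 to 0.69 with length, while members stay between -0.80 and -0.49.

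Atp5g1, Atp5g2 and Atp5g3 encode the same mature subunit c with different import sequences, and their shares of the family's UMIs differed between suffixes. Of the family's UMIs in macrophages, Atp5g1 held 11.2% in suffix 1 (10.5 to 11.8) and 27.1, 28.6 and 24.9% in suffixes 2 to 4. Atp5g2 held 56.1, 48.3, 50.5 and 54.1%, and Atp5g3 32.8, 24.6, 20.9 and 21.0%. Suffix 1 thus had a lower share of Atp5g1 and a higher share of Atp5g3 than each other suffix, with intervals that do not overlap. The share of Atp5g1 in suffix 1 was 13.5% in Timd4-gated, 11.0% in Folr2-gated and 16.9% in Ccr2-gated macrophages. In B cells Atp5g1 held 19.8% in suffix 1 and 27.5 to 27.7% in the others, and in T cells 25.9 to 28.2% in all 4.

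Between cell classes the family differed in Atp5g2 and Atp5g3. Atp5g2 held 61.8, 58.4, 59.3 and 57.6% in B cells of suffixes 1 to 4, above its macrophage share in each suffix. The share of Atp5g3 was 13.2 to 18.5% in B cells, 22.6 to 25.2% in T cells and 20.9 to 32.8% in macrophages. In each suffix its macrophage share was above its B cell share. Its level was 211, 238, 178 and 168 CPM in macrophages and 134, 121, 111 and 129 CPM in B cells.

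The sequences before the start of Atp5g1 and Atp5g3 are shown because these genes for one mature protein differed in share, and those of Uqcr11 and Ndufs8 because they were the members past the rule of size against B cells. They are RefSeq promoter windows on GRCm38, 5′ to 3′ on the gene's minus strand, without annotated exons; capitals mark a match to a motif searched here. Atp5g1 is at chr11:96075671-96075881, Atp5g3 at chr2:73911327-73911576, Uqcr11 at chr10:80406831-80407071 and Ndufs8 at chr19:3912775-3913024.
Atp5g1: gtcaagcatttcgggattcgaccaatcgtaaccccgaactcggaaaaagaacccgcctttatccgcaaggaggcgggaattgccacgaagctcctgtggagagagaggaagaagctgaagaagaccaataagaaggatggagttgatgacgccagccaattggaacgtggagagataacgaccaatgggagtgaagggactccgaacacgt
Atp5g3: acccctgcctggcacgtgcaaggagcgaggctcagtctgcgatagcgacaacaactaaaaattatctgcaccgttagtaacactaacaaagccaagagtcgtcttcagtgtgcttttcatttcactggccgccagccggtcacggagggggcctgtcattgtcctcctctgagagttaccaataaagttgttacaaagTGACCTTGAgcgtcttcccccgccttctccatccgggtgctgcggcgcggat
Uqcr11: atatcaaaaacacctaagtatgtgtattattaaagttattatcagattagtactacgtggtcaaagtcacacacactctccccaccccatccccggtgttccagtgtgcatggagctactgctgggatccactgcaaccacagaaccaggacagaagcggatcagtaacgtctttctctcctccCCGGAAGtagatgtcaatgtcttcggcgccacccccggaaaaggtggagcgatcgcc
Ndufs8: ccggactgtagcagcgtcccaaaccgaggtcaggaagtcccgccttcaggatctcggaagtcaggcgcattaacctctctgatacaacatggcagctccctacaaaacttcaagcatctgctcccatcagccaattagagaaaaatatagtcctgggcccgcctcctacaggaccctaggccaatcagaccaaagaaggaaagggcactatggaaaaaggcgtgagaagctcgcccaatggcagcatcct
The capitals in Atp5g3 are the reverse complement of the ERR letters TCAAGGTCA, and those in Uqcr11 the ETS letters CCGGAAG. The printed stretches of Atp5g1 and Ndufs8 held none of the motifs. In the whole window searched, with the 50 bases after the start, Ndufs8 held the ETS letters and Uqcr11 also the shorter NRF1 letters GCATGCGC.

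Macrophages were compared with B cells inside each suffix. A gene counted as higher or lower by the rule of size if its log2 ratio of CPM was at least 0.5 (1.41-fold) with 1 sign in all 4 suffixes, and the mean of both classes was at least 20 CPM. Of 73 members 1 was higher, against 22.5% of 5478 genes tested, and 1 was lower, against 17.2%. At any size 30 were higher in all 4 suffixes, against 38.5%, and 4 lower, against 37.8%. Few members were therefore past the rule in either direction. Their median log2 ratio was -0.01, 0.44, 0.38 and 0.18 in suffixes 1 to 4, against 0.02, 0.07, -0.02 and -0.05 for all genes tested.

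Uqcr11 was the member past the rule as higher, with 236, 280, 278 and 238 CPM in macrophages and 140.0, 139, 128 and 145 CPM in B cells. Its log2 ratios were 0.75 (0.65 to 0.86), 1.01 (0.90 to 1.13), 1.11 (0.93 to 1.31) and 0.72 (0.55 to 0.89), and the levels of the classes did not overlap. Ndufs8, an iron-sulphur subunit on the electron path of complex I, was the lower one, with 35.1, 69.2, 63.6 and 59.0 CPM in macrophages and 76.0, 107, 119 and 112 CPM in B cells. Its log2 ratios were -1.12 (-1.30 to -0.93), -0.63 (-0.76 to -0.49), -0.90 (-1.10 to -0.69) and -0.93 (-1.12 to -0.72). Suffix 1 limited the count of higher members: without it 9 were past the rule, against 23.7% of genes, namely Uqcr11, Uqcrb, Ndufa1, Ndufa4, Ndufb6, Ndufb8, Ndufb9, Ndufc1 and Atp5j, named after their values were seen. Ndufa1, an accessory subunit of complex I, had log2 ratios of 0.47, 0.92, 1.43 and 0.98, and Uqcrb 0.35, 1.16, 1.05 and 0.80. Of these 9, 6 are named for complex I, which holds 37 of the 73 members tested.

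The direction of the summed level depends on the denominator. The log2 ratio of all members together, macrophages over B cells, was -0.02, 0.37, 0.33 and 0.19 per UMI, but -0.36, 0.01, -0.06 and -0.21 when mitochondrial and ribosomal protein UMIs were left out of the totals, and -0.43, 1.02, 1.65 and 1.13 per cell. Ribosomal protein genes made up 297339 to 375634 CPM in B cells and 157912 to 222761 CPM in macrophages. With those UMIs left out Uqcr11 kept its sign with a median log2 ratio of 0.54, but missed the rule, so that 0 members were higher, against 15.0% of 6736 genes, and 1 lower, against 30.2%. The median log2 ratio of all genes was 0.02, 0.07, -0.02 and -0.05 with all UMIs in the totals and -0.30, -0.27, -0.39 and -0.43 without those UMIs. Relative to the former median, the members' sum per UMI was at -0.04, 0.30, 0.35 and 0.24. No direction is given for the sum.

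**Figure D4:**
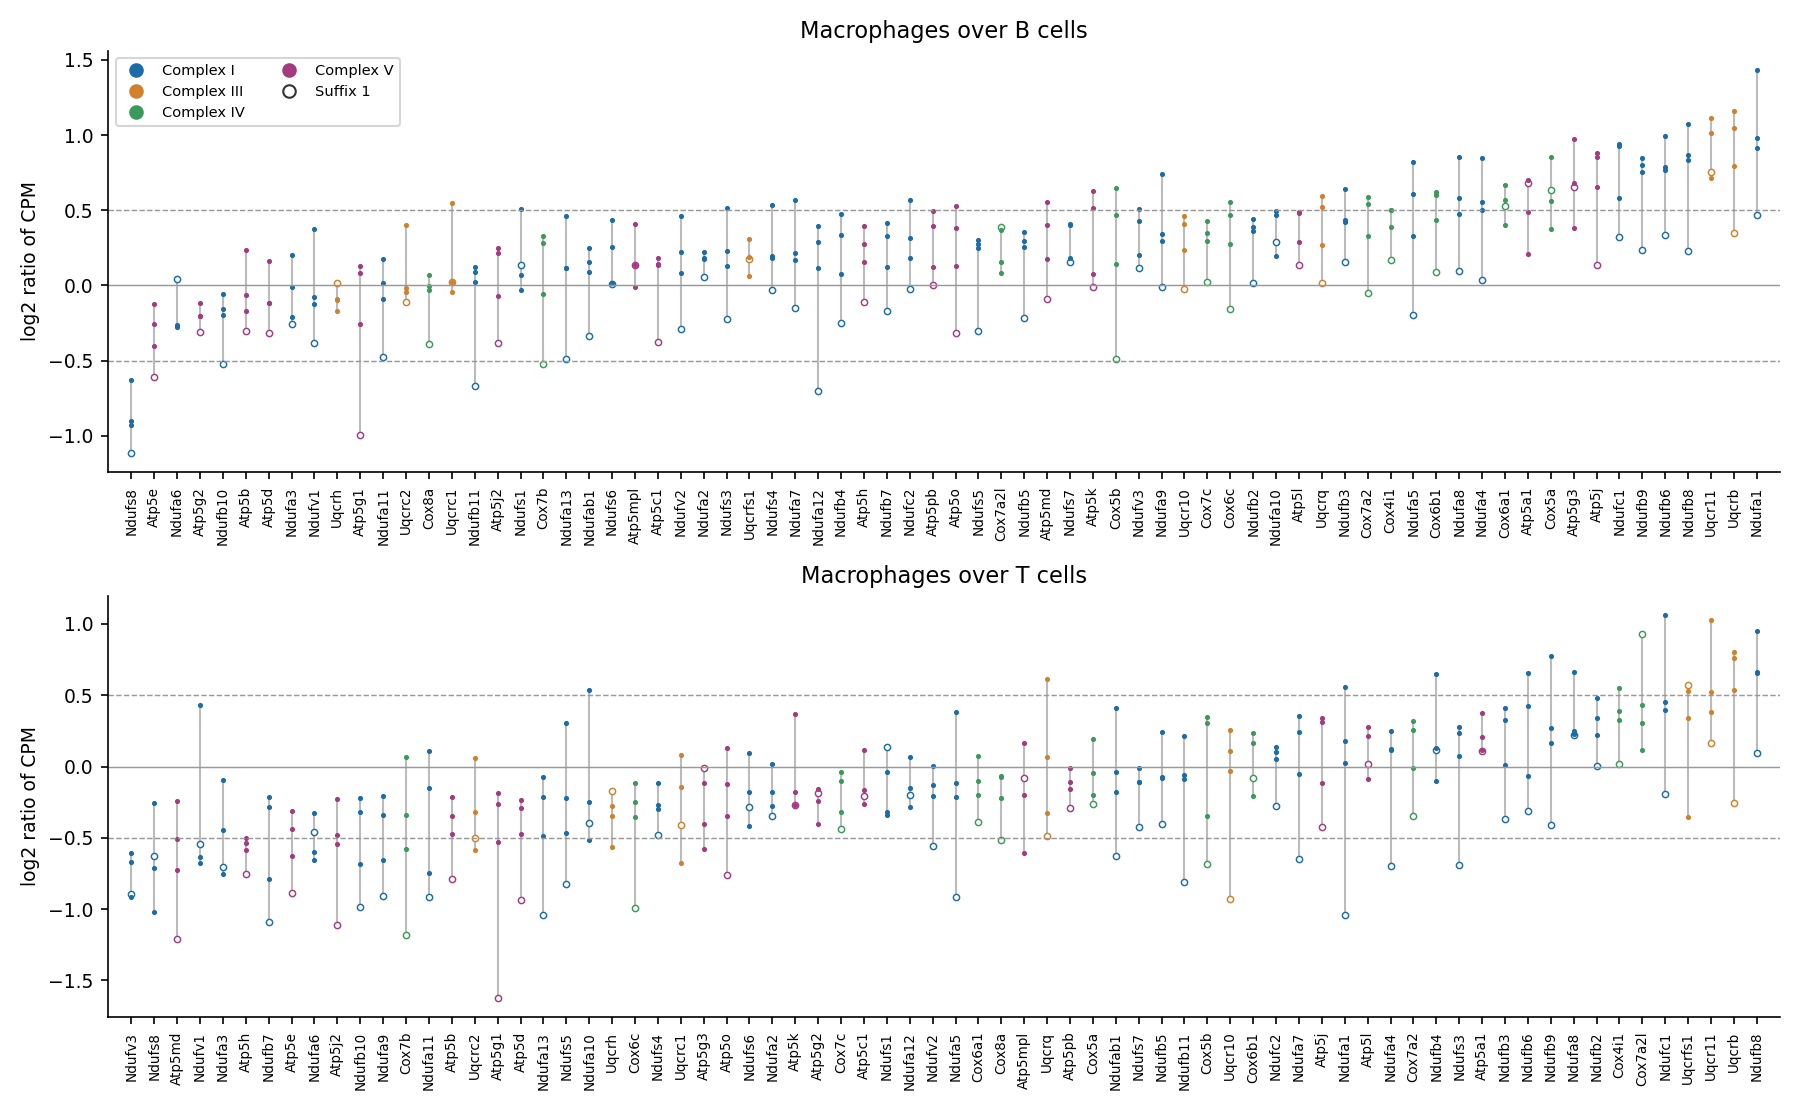
log2 ratio of CPM of the members at 20 CPM except 1 that is not drawn, macrophages over B cells (upper panel) and over T cells (lower panel), coloured by complex, 1 point per suffix with suffix 1 open and a line over the range. Dashed lines mark 0.5 and -0.5. Uqcr11 lies above, Ndufs8 below the dashed lines in all 4 suffixes against B cells, and Ndufv3 below them against T cells.

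Against T cells no member was higher by the rule, against 16% of 5788 genes, and 1 was lower, against 21.3%. At any size 7 were higher in all 4 suffixes, against 25.6%, and 24 lower, against 42.4%. The lower one was Ndufv3, a small accessory subunit near the NADH site of complex I, with 86.0, 125, 115 and 104 CPM in macrophages and 159, 197, 215 and 157 CPM in T cells, from 57, 57, 78 and 69 T cell UMIs. Its log2 ratios were -0.90 (-1.27 to -0.47), -0.67 (-1.03 to -0.25), -0.92 (-1.23 to -0.57) and -0.61 (-0.94 to -0.23). The levels of the classes did not overlap, though relative to the median of all genes Ndufv3 missed the rule. The members' sum had log2 ratios of -0.42, -0.02, 0.03 and -0.18 per UMI and of -0.59, -0.25, -0.24 and -0.45 without mitochondrial and ribosomal protein UMIs; with that denominator 7 members were lower by the rule, against 29.5% of 6872 genes, and 0 higher, against 12.7%. Without suffix 1 there were 2 higher members, Ndufb8 and Uqcrb, against 17.4% of genes, and 1 lower, against 24.8%. Complex V members were lower in all 4 suffixes in 10 of 17 cases, and their sum in macrophages was below that in T cells in each suffix, at log2 ratios of -0.49, -0.12, -0.16 and -0.39 per UMI, but relative to the median of all genes, at -0.28, -0.17, -0.26 and -0.28, it was not lower in suffixes 2 and 3. T cells gave 5580 to 8338 member UMIs per suffix, so single genes there carry wide intervals.

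Inside macrophages, cells were split by Timd4 of at least 3 UMIs, a phosphatidylserine receptor of long-resident peritoneal macrophages, by Folr2 of at least 2 UMIs, the folate receptor beta, and by Ccr2 of at least 3 UMIs, the chemokine receptor of monocyte-derived cells. Timd4-gated cells numbered 122, 541, 2069 and 2655 in suffixes 1 to 4, Folr2-gated cells 854, 952, 321 and 303, and Ccr2-gated cells 169, 801, 144 and 285, and cells in both gates of a comparison were left out of it. No member differed by the rule between Ccr2- and Timd4-gated cells, against 1.52% of genes higher and 2.68% lower, or between Folr2- and Timd4-gated cells, against 1.47% and 1.65%. At any size 15 members were higher in all 4 suffixes for Ccr2 over Timd4, against 21.9% of genes, and 9 lower, against 15.7%; for Folr2 over Timd4 it was 13 against 30.3% and 9 against 11.0%. The members' summed log2 ratio was 0.14, -0.06, 0.02 and 0.07 for Ccr2 over Timd4 and -0.12, -0.03, -0.03 and 0.08 for Folr2 over Timd4. Neither had 1 sign in all suffixes.

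The largest ratios of Ccr2- to Timd4-gated cells were those of Ndufv1 (0.79, 0.40, 0.64 and 0.56), Uqcrc1, a core protein of complex III (0.37, 0.33, 0.34 and 0.53), and Ndufs8 (0.83, 0.13, 0.31 and 0.34). All 3, picked for their median ratio, were above 0 in each suffix. The intervals of Ndufs8 in suffix 2 (-0.03 to 0.30) and of Uqcrc1 in suffix 1 (-0.08 to 0.84) included 0. Ndufv1 missed the rule in suffix 2 alone. The smallest were those of Uqcr11 (-0.35, -0.24, -0.27 and -0.15), Ndufab1, the acyl carrier protein (-0.25, -0.21, -0.21 and -0.06), and Ndufa1 (-0.35, -0.12, -0.07 and -0.26). Uqcrc1 (0.63, 0.38, 0.35 and 0.42) and Ndufv1 (0.79, 0.35, 0.36 and 0.35) were also the largest for Folr2 over Timd4, followed by Atp5b (0.05, 0.36, 0.19 and 0.39), while Uqcr10 (-0.30, -0.26, -0.27 and 0.11), Ndufa7 (-0.40, -0.15, -0.29 and -0.20) and Ndufa1 (-0.70, -0.16, -0.29 and -0.15) were the smallest. These comparisons share their Timd4-gated cells.

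The subunits encoded by mtDNA did not follow the nuclear ones. They summed to 50493, 37853, 43767 and 42175 CPM in macrophages of suffixes 1 to 4, with the highest level in the suffix where nuclear members were lowest. In B cells the sum was 74354, 63536, 65016 and 65354 CPM and in T cells 51884, 43736, 48078 and 44435 CPM. The ratio of nuclear to mtDNA-encoded UMIs was 0.260, 0.502, 0.417 and 0.398 in macrophages, 0.179, 0.231, 0.223 and 0.225 in B cells and 0.338, 0.441, 0.372 and 0.427 in T cells. In all 3 classes it was lowest in suffix 1 and highest in suffix 2. In all 4 suffixes it was lowest in B cells. The limit on mitochondrial UMIs bounds this ratio; without it macrophages were at 0.202, 0.482, 0.403 and 0.376 and B cells at 0.164, 0.225, 0.207 and 0.211. Ccr2-gated macrophages had 0.404, 0.539, 0.472 and 0.449 and Timd4-gated ones 0.277, 0.439, 0.413 and 0.398.

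**Figure D5:**
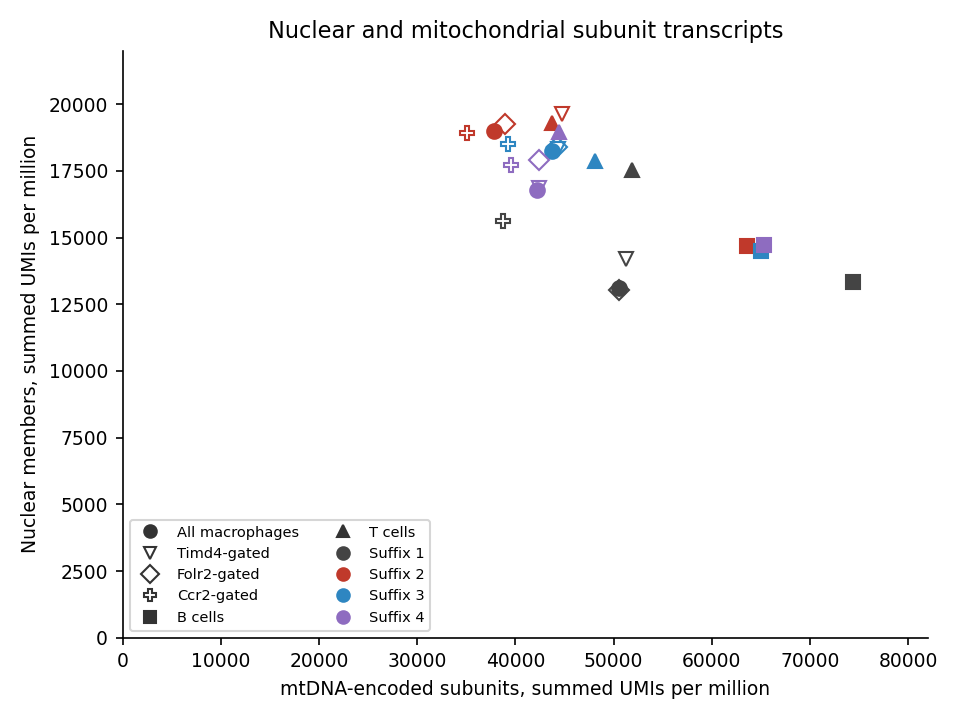
Summed nuclear members (vertical axis) against summed mtDNA-encoded subunits (horizontal axis), both in CPM from 0, for each cell class (marker shape) and suffix (colour). B cells lie at the right, from 63536 on the horizontal axis upwards. All macrophages and Folr2-gated macrophages of suffix 1 lie lowest, at 13106 and 13039 on the vertical axis. Timd4- and Ccr2-gated macrophages of suffix 1 lie higher, at 14202 and 15609.

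Per UMI, all 13 mtDNA-encoded genes were lower in macrophages than in B cells in each suffix, against 37.8% of genes tested. Levels per cell, where macrophages of suffixes 2 to 4 are deeper, were not compared. By the rule of size 6 were lower, against 17.2% of genes: mt-Co2, mt-Co3, mt-Cytb, mt-Atp6, mt-Atp8 and mt-Nd5. mt-Cytb, the cytochrome b of complex III, had 3934, 3046, 3338 and 3342 CPM in macrophages and 7282, 5894, 5850.2 and 5988 CPM in B cells. mt-Nd5, a proton-pumping subunit of complex I, had 360, 255, 314 and 316 CPM against 700, 596, 681 and 724 CPM. mt-Atp8, of the ATP synthase, had log2 ratios of -1.14, -1.09, -0.98 and -0.95, and mt-Co1, the catalytic subunit of complex IV, had 9379, 5937, 6193 and 5946 CPM against 12537, 9586, 9750.4 and 10006.5 CPM without passing the rule. The others, mt-Nd1, mt-Nd2, mt-Nd3, mt-Nd4, mt-Nd4l and mt-Nd6, did not pass it either. mt-Nd6, read from the opposite strand, was at 16.4 to 18.3 CPM in macrophages. Against T cells 7 of 13 were lower in each suffix, against 42.4% of genes, and 2 higher, against 25.6%. By the rule mt-Atp8 and mt-Nd6 were lower there, 2 of 13 against 21.3% of genes.

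Of the other genes of the pathway, complex II had 2 of 4 members higher in macrophages than in B cells by the rule, against 22.5% of genes, and 0 lower, against 17.2%. Without mitochondrial and ribosomal protein UMIs in the totals, 0 of the 4 passed. Sdhc, a membrane anchor of complex II, had 102, 84.7, 65.5 and 61.2 CPM in macrophages and 40.4, 36.6, 33.1 and 36.6 CPM in B cells, and Sdhd, the other anchor, 90.4, 107, 78.4 and 80.8 CPM against 53.1, 56.0, 49.6 and 46.7 CPM. The flavoprotein Sdha had 147, 117, 87.1 and 84.5 CPM against 129, 95.3, 97.0 and 93.4 CPM, and the iron-sulphur protein Sdhb 35.0, 88.9, 77.1 and 73.3 CPM against 40.7, 68.0, 76.1 and 75.7 CPM, without a common sign. Cytochrome c (Cycs) had 64.3, 149, 108 and 95.3 CPM in macrophages and 78.4, 108, 105 and 92.9 CPM in B cells, and Cyc1, the cytochrome c1 of complex III, 48.8, 80.9, 71.6 and 66.2 CPM against 55.5, 59.5, 48.0 and 57.4 CPM; neither passed the rule.

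Of 7 genes of ATP export and ATP synthase inhibition, 3 were higher, against 22.5% of genes, and 1 lower, against 17.2%. Without mitochondrial and ribosomal protein UMIs 0 were higher, against 15.0%, and Slc25a4 was still lower, against 30.2%. Atpif1, the inhibitor protein of the ATP synthase, had log2 ratios over B cells of 0.56 to 1.502, with 0.56 in suffix 1. Vdac1 (0.54, 0.77, 0.63 and 0.62) and Vdac3 (0.54, 0.91, 0.92 and 0.69) are channels of the outer membrane. Slc25a4, the muscle-type ADP/ATP carrier, was lower at -1.77, -1.32, -0.58 and -0.94, and was lower against T cells too (-1.67 to -0.71), as 1 of 7, against 21.3% of genes. Tfam, which packages and transcribes mtDNA, was the 1 of 6 biogenesis regulators past the rule against B cells, at -0.94, -1.11, -1.46 and -1.46. The share of all genes lower was 17.2%. Against T cells Tfam (-1.22, -1.23, -1.37 and -1.53) and Nrf1, a regulator of nuclear subunit genes (-0.57, -1.16, -0.60 and -1.10), were lower, 2 of 6 against 21.3%. Without mitochondrial and ribosomal protein UMIs Tfam was lower against B cells as 1 of 7, against 30.2% of genes. Against T cells Tfam, Nrf1 and Pprc1 were then lower, 3 of 8 against 29.5%.

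Of 6 uncoupling and mitochondrial antioxidant genes, 4 were higher in macrophages than in B cells by the rule, against 22.5% of genes. In the other direction 0 were lower, against 17.2%. Without mitochondrial and ribosomal protein UMIs 3 were higher, Ucp2 no longer, against 15.0% of genes. Prdx5, a peroxiredoxin, had log2 ratios of 2.87, 3.73, 3.56 and 3.44, Gpx4, which removes lipid peroxides, 1.10, 1.34, 1.45 and 1.15, Sod2, the mitochondrial superoxide dismutase, 1.01, 1.30, 0.93 and 1.08, and Ucp2, an uncoupling protein of immune cells, 1.12, 0.60, 0.88 and 0.92. Prdx5, Gpx4 and Ucp2 were past the rule against T cells as well, Ucp2 not without those UMIs. Of the assembly factors, Ndufaf4 of complex I was lower against both lymphocyte classes, at -1.15, -0.97, -0.95 and -0.64 over B cells. It was 1 of 3 complex I factors at 20 CPM, against 17.2% of genes lower for B cells and 21.3% for T cells. Of 12 factors of complexes III, IV and V, 0 passed against B cells, against 22.5% of genes higher and 17.2% lower. Against T cells 3 of 13 were lower, against 21.3% of genes: Ttc19 of complex III, the copper chaperone Cox17 and Cox20. Without mitochondrial and ribosomal protein UMIs 3 of 15 were lower against B cells, against 30.2% of genes. Against T cells it was then 6 of 19, against 29.5%. Of complex I factors Ecsit, Ndufaf4 and Ndufaf8 were then lower, as 3 of 7 against B cells and 3 of 5 against T cells. Between the macrophage gates 0 genes of these lists passed.

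Cells were thinned to 3000 UMIs to compare them at 1 depth, which left out 85, 55, 24 and 29 shallower macrophages and 1 to 47 lymphocytes per class and suffix. The median macrophage then had 37, 55, 53 and 49 member UMIs in suffixes 1 to 4, the median B cell 39, 43, 44 and 44, and the median T cell 50, 55, 52 and 55. Before thinning the medians were 101, 231, 253 and 211 in macrophages, 130, 103, 72 and 91 in B cells and 90, 90, 73 and 100.5 in T cells. Macrophages spread more widely than B cells: their variance over mean was 2.86, 3.25, 2.58 and 2.56, against 1.74, 1.59, 1.46 and 1.44 in B cells and 2.74, 2.32, 1.61 and 2.29 in T cells. The middle 50% of thinned macrophages held 31 to 44 member UMIs in suffix 1 and 46 to 64 in suffix 2, so the suffix 1 range lay below that of suffix 2 as a whole. Complex I and complex V UMIs of a cell correlated at r of 0.35 to 0.45 in macrophages, 0.09 to 0.17 in B cells and 0.26 to 0.41 in the few T cells. Nuclear and mtDNA-encoded UMIs correlated at -0.29 to -0.45 in macrophages, -0.10 to -0.32 in B cells and -0.18 to -0.27 in T cells. These are descriptions over cells of 1 library at 1 total, in which a cell with more of one kind of UMI has less room for others.

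Promoter windows of RefSeq on GRCm38.p6, 250 bases before to 50 after a start, were at hand for 66 of the 81 member symbols and for 27025 genes. Motifs were searched as exact letters on both strands. NRF1, nuclear respiratory factor 1, is known for binding promoters of nuclear subunit genes. Its palindrome, the letters in capitals further on, was in the windows of 5 of 66 members (7.58%), 2.55% of the 4321 other genes at 20 CPM in macrophages and 1.07% of all genes. The holders were Atp5g2, Atp5k, Cox6a1, Ndufa11 and Uqcrc1. Their 30 bases around the match, in capitals, are shown so that the surroundings can be compared: chr15:102671070-102671099, chr5:108434430-108434459 and chr5:115349101-115349130 on the minus strand, and chr17:56717692-56717721 and chr9:108936668-108936697 on the plus strand, in the order of the lines.
Atp5g2: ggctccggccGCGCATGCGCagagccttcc
Atp5k: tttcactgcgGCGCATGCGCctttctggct
Cox6a1: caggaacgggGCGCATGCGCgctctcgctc
Ndufa11: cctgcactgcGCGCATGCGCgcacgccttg
Uqcrc1: actccgctctGCGCATGCGCagcgcggctc
The first letter of the match lay 42, 50, 162 and 60 bases before the start in Atp5g2, Atp5k, Cox6a1 and Ndufa11, and after the start in Uqcrc1. These 5 genes had no common course: Cox6a1 was highest in suffix 1 of macrophages, at 256, 231, 216 and 181 CPM, while Ndufa11 was lowest there, at 65.8, 129, 118 and 104 CPM.

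The shorter GCATGCGC, which the palindrome holds on both strands, was in 13.6% of member windows, 6.64% of the other expressed genes and 3.05% of all genes. The YY1 letters AAGATGGCG were in 10.6%, 4.49% and 1.64%, but in 1.52% of member windows when only the 250 bases before the start were read, which is 1 member. The ETS letters CCGGAAG, bound by GABP among others, were in 22.7% of members and 24.0% of the other expressed genes. The SP letters GGGCGG were in 40.9% of members, 72.0% of the other expressed genes and 38.2% of all genes. The ERR letters TCAAGGTCA, of the oestrogen-related receptors, were in 1 member, Atp5g3, in 0.324% of the other expressed genes and in 0.466% of all genes. A match is a description of letters and not a bound site.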

How the data were processed

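The authors deposited a single merged table of UMI counts, with 31253 genes in rows and 26811 barcodes in columns. Its header records Cell Ranger 5.0.1, and the submitters' processing notes list CASAVA 1.8, Seurat and mm10 besides. The sources used here do not say how cells were called, nor how introns and free RNA were handled. UMIs were summed per gene over the cells of a class and suffix and divided by that sum's total, times 1000000 (CPM). For log2 ratios 0.5 counts were added to each sum. Total UMIs per suffix were 40321459, 74067998, 73429015 and 78083803. Doublets were not called.

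The members and gene lists were chosen with earlier results of these data known, so no count is independent evidence. Members named are those past the rule of size, or where there were none the 3 largest and 3 smallest ratios, the 6 widest and 4 narrowest ranges across suffixes, the tissue isoforms and the 2 members per complex with most UMIs. Of the narrowest ranges, 1 is not reported here. Counts were also simulated, with Poisson error only. Against B cells 50 of 50 genes set 2-fold higher and 50 of 50 set 2-fold lower were called, with 0 of 5241 unchanged ones. Against T cells 39 of 49 were called in either direction, with 2 of 5581 unchanged ones. The simulated counts held no variation between libraries or cells, so they give no error rate for real libraries. Gene positions come from GENCODE M21 and promoters from RefSeq, both on GRCm38. Analyses ran in Python 3.11.15 with numpy 2.4.6, scipy 1.17.1, pandas 2.3.3 and matplotlib 3.10.9.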

Additional observations from a re-analysis of the deposited data

How the results depend on the processing

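Alternatives covered the expression filter, the denominator, centring, thinning, gene and mitochondrial limits, the deepest barcodes, cell means, gates, the size asked for and each suffix left out; those by transcript length, per cell and within gates were added after the data were seen. Under these, median log2 ratios were recomputed for Uqcr11, Ndufs8, Uqcrb, Ndufb8 and Ndufa1 against B cells and for Ndufv3 and Uqcr11 against T cells. All of them kept their sign. Against T cells Ndufv3 lost its call by the rule in 4 of 17 alternatives. Against B cells Uqcr11 lost it in 2 and Ndufs8 in 1, while Ndufa1 gained it in 3, Uqcrb in 2 and Ndufb8 in 1. The summed ratios to B and T cells changed sign in some suffixes with the denominator. Higher members against B cells are given with the share of all genes tested in brackets. They numbered 0 without mitochondrial and ribosomal protein UMIs (15.0%), 2 after thinning (21.4%) and 3 at a mitochondrial limit of 5% (17.8%). At a log2 of 0.25 and 1 they numbered 9 (28.7%) and 0 (14.7%). With 1 suffix left out there were 1 to 9 (22.9 to 23.9%). Lower members numbered 0 at a log2 of 1 (8.31%). Against T cells higher members numbered 1 with centred ratios (19.7%) and 0 to 2 with 1 suffix left out (16.8 to 17.4%). Lower ones numbered 7 without mitochondrial and ribosomal protein UMIs (29.5%) and 0 with centred ratios (14.7%). There were 2 at 1000 detected genes (21.3%), 2 without the mitochondrial limit (21.1%) and 2 without barcodes above the 98th percentile of UMIs (21.7%). At a log2 of 0.25 and 1 lower members numbered 5 (31.4%) and 0 (10.2%). With 1 suffix left out they numbered 1 to 4 (23.4 to 25.4%). Higher members numbered 2 at a log2 of 0.25 for each gate comparison (4.20% of genes for Ccr2 and 5.11% for Folr2 over Timd4). With 1 suffix left out they numbered 0 to 1 for Ccr2 over Timd4 (1.56 to 3.32%). Members that spanned 2-fold across suffixes numbered 40 with centred ratios, against 20.0% of genes. Without mitochondrial and ribosomal protein UMIs they numbered 21, against 24.1%. At a log2 of 0.5 and 1.5 the members past it numbered 55 and 2. The share of all genes at these sizes is not given, so neither count says whether members varied more than other genes. With 1 suffix left out 0 to 14 spanned 2-fold. The 0 was without suffix 1, against 3.34% of genes, and the shares for the other suffixes left out are not given. Those lowest in suffix 1 stayed within 55 to 70, with 70 for centred ratios, against 42.3% of genes. The median summed level in macrophages, 17514 CPM, was 23824 without mitochondrial and ribosomal protein UMIs, 17904 at the limit of 5%, 17409 without it, 17455 without the deepest barcodes and 17133 as a mean over cells; the nuclear to mtDNA ratio of 0.407 was 0.467, 0.390, 0.405 and 0.386 under the last 4. Counts of 0 or 1 move easily, and 289213 to 439740 UMIs in T cells limit single genes there. No paired analysis was possible because each group has 1 sample and suffixes carry no sample number.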
